A study of Mus musculus with 33 samples.

Results

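Formative and primed epiblast genes were followed through the differentiation of 2 mouse embryonic stem (ES) cell lines: Nodal, Lefty1, Lefty2, Fgf5, Otx2, Pou3f1, Zic2, Sox3 and Sox4. They were chosen by symbol, as genes known to mark or signal in the epiblast, and each had exactly 1 row among the 24391 genes of the count table, so 9 of 9 were found. The study compared RepB cells with wildtype (WT) cells, both of the strain CAST/Ei x 129/Sv/Jae, at days 0, 5, 6, 7, 8 and 10. The labels do not describe the RepB change further; the study's title concerns Repeats A and B of Xist, the noncoding RNA that silences 1 X chromosome in female cells. Polyadenylated RNA was sequenced, with 1 library for each line and day, giving 12 RNA libraries in all. The other 21 samples (chromatin immunoprecipitation and input libraries, and RepA fibroblasts) were not analysed here.

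Both lines were kept at day 0 in medium with the cytokine LIF on irradiated mouse embryonic fibroblast feeders. The feeders were then removed, the cells formed embryoid bodies in suspension without LIF, and these were plated on gelatin before day 5. RepB cells at days 5 to 10 and RepB cells at day 0 were therefore set against WT cells under the same culture. The labels name no clone and no second culture, so each line stands for itself. The p-values below do not cover the spread between cultures or clones. Those for RepB against WT over days 5 to 10 rest on the days of 1 differentiation of each line as blocks. Those between days rest on line as a block, with the RepB and WT libraries of a day serving as its replicates. Their spread is thus taken from how differently the lines moved between days.

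As background, naive ES cells resemble the preimplantation epiblast and pass through a formative state, in which the cells become competent for germ layer formation, before the primed state of the postimplantation epiblast. Fgf5, Otx2 and Pou3f1 (also called Oct6) mark the formative and primed states and are low in naive cells. Nodal is a secreted TGF-beta family ligand that acts through activin receptors, the co-receptor Tdgf1 and Smad2 and Smad3 with Foxh1. Lefty1 and Lefty2 are secreted antagonists of Nodal and are themselves targets of Nodal signalling. Zic2 is a zinc finger transcription factor, Sox3 an X-linked SoxB1 transcription factor of the epiblast and neural progenitors, and Sox4 a SoxC transcription factor expressed in many progenitors.

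RefSeq promoter windows (build GRCm38.p6, 250 bases before to 50 bases after a start) were matched for 4 of the 9 genes, with 7 windows in all, of which 4 belonged to Otx2. They are shown for the ligand Nodal, for Fgf5 and Otx2, whose transcripts were high at days 5 and 6, and for Sox4, which was highest at day 10. Of the 4 Otx2 windows, the one that held the OTX motif is shown, a choice made after the search; another held TATAAA, beginning 192 bases before its start, and the other 2 held no match. Each reads 5′ to 3′ on the strand of the gene, and capitals mark matches to 5 short motifs, given with their shares below the sequences and searched on both strands. The windows are chr10:61417722-61418021 on the plus strand for Nodal, chr5:98253934-98254233 on the plus strand for Fgf5, chr14:48665060-48665359 on the minus strand for Otx2 and chr13:28953650-28953949 on the minus strand for Sox4.
Nodal: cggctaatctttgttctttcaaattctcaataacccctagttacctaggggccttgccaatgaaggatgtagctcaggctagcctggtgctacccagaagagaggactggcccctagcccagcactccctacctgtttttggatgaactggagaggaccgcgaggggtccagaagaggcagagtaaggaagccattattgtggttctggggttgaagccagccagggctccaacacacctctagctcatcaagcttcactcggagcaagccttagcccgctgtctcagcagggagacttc
Fgf5: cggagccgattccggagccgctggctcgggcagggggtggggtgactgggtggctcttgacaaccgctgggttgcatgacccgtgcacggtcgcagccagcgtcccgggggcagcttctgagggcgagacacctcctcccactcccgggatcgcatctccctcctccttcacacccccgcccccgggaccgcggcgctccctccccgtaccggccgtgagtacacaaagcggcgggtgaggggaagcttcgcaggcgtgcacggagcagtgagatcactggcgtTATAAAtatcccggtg
Otx2: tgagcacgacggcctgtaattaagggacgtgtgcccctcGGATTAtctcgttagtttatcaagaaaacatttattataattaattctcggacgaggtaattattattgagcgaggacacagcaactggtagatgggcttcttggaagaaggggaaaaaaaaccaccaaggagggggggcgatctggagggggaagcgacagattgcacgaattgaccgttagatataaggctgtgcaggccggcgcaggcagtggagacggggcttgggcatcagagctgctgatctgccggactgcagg
Sox4: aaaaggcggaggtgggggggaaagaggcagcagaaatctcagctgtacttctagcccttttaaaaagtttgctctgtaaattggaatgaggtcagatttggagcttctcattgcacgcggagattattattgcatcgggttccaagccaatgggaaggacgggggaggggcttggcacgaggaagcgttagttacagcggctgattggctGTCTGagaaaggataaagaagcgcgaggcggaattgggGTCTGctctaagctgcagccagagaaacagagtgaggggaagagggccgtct
In these windows TATAAA stood at base 35 after the Fgf5 start, the reverse complement of TAATCC began 211 bases before the Otx2 start, and the reverse complement of CAGAC began 40 and 2 bases before the Sox4 start. The Nodal window held none of the 5 strings. Among 32851 mouse promoter windows of this length, the SMAD motif CAGAC was found on either strand in 49.6%, and the TATA motif TATAAA in 13.6%. The OTX motif TAATCC was found in 7.06% of them, the POU motif ATTTGCA in 4.02% and the SOX motif ACAATGG in 3.66%. The Fgf5 window had a GC content of 68.3% and the Nodal window one of 54.0%, against a median of 52.7% over all windows. A match describes letters in the window and says nothing of binding.

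Gene counts summed to 3594551 to 15231930 per library in RepB cells and to 7763633 to 17773138 in WT cells. The WT library was deeper than the RepB library on every day, by 1.11 times at day 0 and by 2.07 to 3.36 times at days 5 to 10. A count of 3 corresponded to 0.197 to 0.835 CPM (counts scaled to a fixed library total) in RepB libraries and 0.169 to 0.386 CPM in WT libraries. These limits cover counting error only. Levels below are CPM of the library total when a gene is compared with itself. They are TPM, the same kind of scale after division by length, computed from the deposited counts and exon lengths, when genes are compared with each other. All 5 ES cell markers (Pou5f1, Sox2, Nanog, Zfp42 and Esrrb) were detected, and their summed level at day 0 was 4219 CPM in RepB cells and 3780 CPM in WT cells.

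The 9 genes followed 3 courses, each seen in both lines. Lefty1 and Lefty2 were highest at day 0, Nodal, Fgf5, Otx2, Pou3f1, Zic2 and Sox3 were highest at day 5 or 6, and Sox4 was highest at day 10. Each day was set against day 0 in 1 edgeR quasi-likelihood fit with line as a block, and p-values were Benjamini-Hochberg adjusted over the 15179 genes tested. At day 5, 9 of 9 genes passed an adjusted p of 0.05, 7 higher and 2 lower than at day 0, where 45% of all genes passed (21.4% higher and 23.6% lower). At day 6 it was 6 higher and 2 lower, beside 51.7% of all genes (25.4% higher and 26.4% lower). At day 7 it was 4 higher and 3 lower, beside 52% of all genes (26.2% higher and 25.9% lower). At day 8 it was 2 higher and 4 lower, beside 59.8% of all genes (30.9% higher and 28.9% lower). At day 10, 2 genes were higher and 7 lower than at day 0, where 64.8% of all genes passed (33% higher and 31.8% lower). Between days 10 and 5, 8 of the 9 genes fell and Sox4 rose, where 56.9% of all genes passed (29.2% higher and 27.8% lower). The median log2 difference of the 9 genes was 1.91 at day 5 against day 0 and -3.33 at day 10 against day 5, beside -0.03 and -0.02 over all genes. In bulk RNA, fewer cells of a type and less RNA per cell cannot be told apart.

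**Figure D1:**
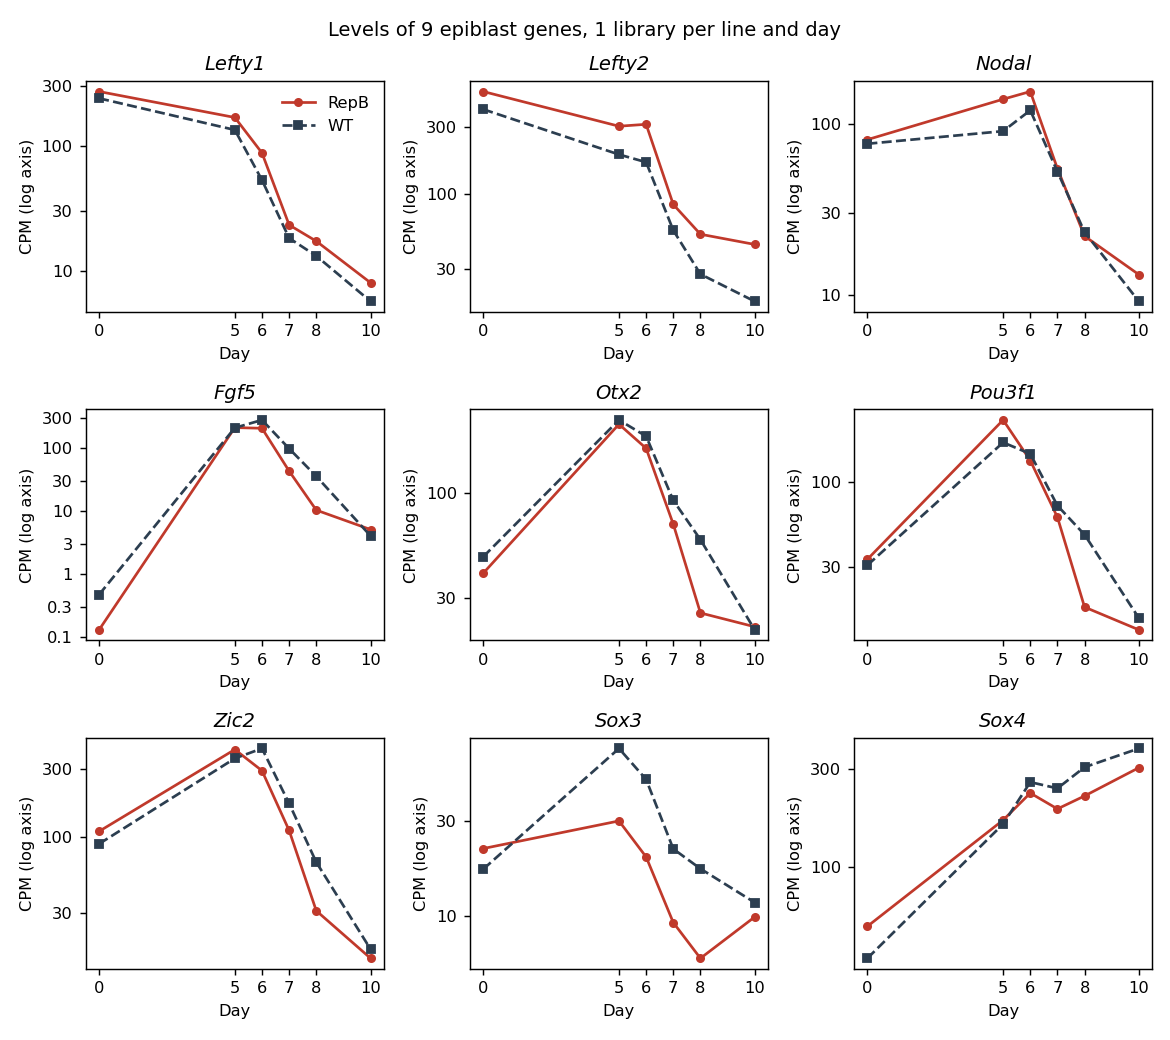
Level of each of the 9 genes in CPM (vertical log axis, its range set per gene) by day (horizontal axis), with 1 library per line and day, RepB as circles with solid lines and WT as squares with dashed lines. Lefty1 and Lefty2 descend from day 0, Fgf5 climbs by over 2 orders on the log axis by day 5, and Sox3 in WT cells lies above Sox3 in RepB cells at days 5 to 10.

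By TPM, the same 4 genes led at day 0 in both lines, in the order Lefty2, Lefty1, Nodal and Zic2. Lefty2 was at 584 TPM in RepB cells and 440.1 TPM in WT cells, and Lefty1 at 461 TPM in RepB cells and 409 TPM in WT cells. Nodal and Zic2 were close to each other at day 0, at 105 and 101 TPM in RepB cells and 99.6 and 83.0 TPM in WT cells. Fgf5 was last at day 0 in both lines, at 0.143 TPM in RepB cells and 0.517 TPM in WT cells. At day 5 Zic2 led, with 358 TPM in RepB cells and 316 TPM in WT cells, and Sox3 was last, with 37.8 TPM in RepB cells and 89.0 TPM in WT cells. Between them, Fgf5, Otx2 and Pou3f1 lay within 210.2 to 216 TPM in RepB cells and within 155 to 227 TPM in WT cells. At day 10 Sox4 stood far above the others, at 281 TPM in RepB cells and 344 TPM in WT cells, where the next gene had 49.7 TPM (Lefty2, RepB) and 21.2 TPM (Otx2, WT). With 1 library per line and day, neighbours in these orders have no replicate spread to be set against.

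Nodal, the ligand, has its first listed exon at chr10:60880720-60881243 on the plus strand of mm9. Its level at days 0, 5, 6, 7, 8 and 10 was 80.8, 139, 154, 54.6, 22.0 and 13.1 CPM in RepB cells and 76.4, 90.5, 119.9, 52.5, 23.2 and 9.12 CPM in WT cells. It was highest at day 6 in both lines and below its day 0 level by day 7. The edgeR log2 difference was 0.81 ± 0.16 (SE) at day 6 against day 0 (adjusted p = 0.000697) and -2.76 ± 0.19 at day 10 against day 0 (adjusted p = 1.54e-08). Its fall at day 7 against day 0 (log2 -0.47 ± 0.16, adjusted p = 0.0248 by edgeR) did not pass after all libraries were thinned to 1 depth (log2 -0.40, adjusted p = 0.14).

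Lefty1 and Lefty2, the Nodal antagonists, are neighbours on chromosome 1, with first listed exons at chr1:182865170-182865490 and chr1:182823250-182823564 of mm9, 41920 bases apart. They are close paralogs, and how the counting treated reads that match both is not given in the sources used here, so the split between them is uncertain. Lefty1 was at 272, 169, 87.7, 23.3, 17.2 and 8.01 CPM in RepB cells at days 0, 5, 6, 7, 8 and 10, and at 240.0, 134, 53.2, 18.2, 13.1 and 5.69 CPM in WT cells. Lefty2 was at 529, 302, 311, 85.1, 52.6 and 44.6 CPM in RepB cells on the same days and at 397, 191, 169, 56.1, 27.6 and 17.8 CPM in WT cells. Both genes were highest at day 0 and lowest at day 10 in each line, and RepB cells had the higher level of both on every day. The edgeR log2 difference at day 10 against day 0 was -5.14 ± 0.19 (adjusted p = 5.78e-11) for Lefty1. That of Lefty2 was -3.92 ± 0.20 (adjusted p = 6.95e-10, edgeR), and the difference between the genes was not tested. The Lefty2 level per length over that of Lefty1 was 3.63 at day 10 and 1.27 at day 0 in RepB cells, and 2.03 at day 10 and 1.08 at day 0 in WT cells. Between days 5 and 6 Lefty1 was lower at day 6 in both lines while the 2 Lefty2 values of each line differed little, with 311 CPM at day 6 against 302 CPM at day 5 in RepB cells and 169 CPM against 191 CPM in WT cells.

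Fgf5, a secreted fibroblast growth factor, has its first listed exon at chr5:98683203-98683779 on the plus strand of mm9. Its level was 0.131, 208, 203, 42.7, 10.3 and 5.07 CPM in RepB cells at days 0, 5, 6, 7, 8 and 10 and 0.474, 206, 274, 96.7, 35.3 and 4.02 CPM in WT cells. At day 0 these were 2 counts in RepB cells and 8 counts in WT cells. The ratio of day 5 to day 0 was 1584 in RepB cells, with an exact 95% counting interval of 437.5 to 13100, and 435 in WT cells, with an interval of 220.6 to 1009. No other gene of the 9 was that low at day 0. Fgf5 then fell by day 10 to 5.07 CPM in RepB cells and 4.02 CPM in WT cells, an edgeR log2 difference against day 5 of -5.61 ± 0.38 (adjusted p = 1.91e-08). The fall was the steepest of the 9 genes between those days. The highest level was 41.0 times that at day 10 in RepB cells and 68.2 times in WT cells.

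Otx2, a homeodomain transcription factor, has its first listed exon at chr14:49277352-49279001 on the minus strand of mm9; the table also lists the antisense gene Otx2os1, and the strand setting of the counting is not given in the sources used here. Otx2 was at 39.9, 218, 166, 69.8, 25.3 and 21.6 CPM in RepB cells over the 6 days and at 48.1, 229, 190.4, 91.6, 58.5 and 20.9 CPM in WT cells. It was highest at day 5 in both lines, and at day 8 RepB cells were below and WT cells above their own day 0 level. The edgeR log2 difference from day 0 was 2.37 ± 0.20 at day 5 (adjusted p = 6.19e-07), 0.02 ± 0.21 at day 8 (adjusted p = 0.937) and -0.96 ± 0.22 at day 10 (adjusted p = 0.00146).

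Pou3f1, a POU domain transcription factor with its first listed exon at chr4:124334889-124336203 of mm9, was at 33.5, 243, 137, 61.0, 17.0 and 12.3 CPM in RepB cells and at 30.8, 177, 150.2, 71.9, 47.5 and 14.5 CPM in WT cells. Like Otx2, it was highest at day 5 and lowest at day 10 in both lines. Its edgeR log2 difference was 2.72 ± 0.28 at day 5 against day 0 (adjusted p = 3.13e-06) and -3.88 ± 0.31 at day 10 against day 5 (adjusted p = 1.23e-07). Across the 12 libraries the log2 levels of Otx2 and Pou3f1 had a Pearson r of 0.99. These libraries share days, lines and depth, so the coefficient describes a common course and has no test.

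Zic2 has its first listed exon at chr14:122874606-122875969 on the plus strand of mm9. It was at 110.2, 409, 291, 112, 30.9 and 14.4 CPM in RepB cells over the 6 days and at 90.2, 354, 416, 172, 67.2 and 16.7 CPM in WT cells. It was highest at day 5 in RepB cells and at day 6 in WT cells, and by day 10 it was below day 0 in both lines. The edgeR log2 difference was 1.93 ± 0.24 at day 5 against day 0 (adjusted p = 2.34e-05) and -4.55 ± 0.29 at day 10 against day 5 (adjusted p = 1.18e-08). Zic2 tracked Otx2 (r = 0.96), Pou3f1 (r = 0.96) and Nodal (r = 0.94) over the 12 libraries.

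Sox3 has its listed exon at chrX:58144541-58146605 on the minus strand of mm9 and was the only X-linked gene of the 9. Its level was 21.8, 30.0, 19.8, 9.26, 6.12 and 9.88 CPM in RepB cells at days 0, 5, 6, 7, 8 and 10 and 17.2, 69.4, 48.5, 21.7, 17.3 and 11.7 CPM in WT cells. RepB cells were the higher at day 0 and the lower at each of days 5 to 10. At day 5 Sox3 stood at 1.38 times its day 0 level in RepB cells and at 4.04 times in WT cells. In the fit over both lines the edgeR log2 difference was 1.20 ± 0.33 at day 5 against day 0 (adjusted p = 0.00831) and -2.10 ± 0.37 at day 10 against day 5 (adjusted p = 0.000211). Its difference at day 10 against day 0 was near the threshold (log2 -0.90 ± 0.37, adjusted p = 0.0447 by edgeR). It missed the threshold with limma-voom (adjusted p = 0.0942), after thinning (0.167) and without day 7 (0.0548).

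Sox4, with its listed exon at chr13:29042599-29045551 on the minus strand of mm9, was the only 1 of the 9 genes with a higher level at day 10 than at day 5. It was at 51.9, 169, 228, 192, 221 and 303 CPM in RepB cells over the 6 days and at 36.4, 162, 258, 241, 304 and 375 CPM in WT cells. Day 10 was the highest and day 0 the lowest in both lines. The edgeR log2 difference was 1.91 ± 0.20 at day 5 against day 0 (adjusted p = 3.75e-06) and 1.12 ± 0.19 at day 10 against day 5 (adjusted p = 0.000167). Over the 12 libraries Sox4 had a Pearson r of -0.80 with Lefty1 and -0.76 with Lefty2.

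RepB cells were then set against WT cells over days 5 to 10. The 5 days served as blocks in an edgeR quasi-likelihood fit with a separate RepB effect at day 0. Lefty2 and Lefty1 were higher and Sox3 was lower in RepB cells, and the other 6 genes did not pass an adjusted p of 0.05. Before adjustment, 8 of the 9 genes, all but Pou3f1, had an edgeR p under 0.05, as had 2271 of the 15179 genes. That count was 8 with limma-voom and 7 with DESeq2. The call rate over the 15179 genes tested was 2.28% (1.51% higher and 0.771% lower in RepB cells). The median log2 difference was -0.22 over the 9 genes and -0.002 over all genes. When the fit had no day term, 0 of the 9 genes passed, and with 1 genotype effect over all 6 days only Lefty2 passed.

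Lefty2 was 1.83-fold higher in RepB cells as the mean over days 5 to 10, with log2 ratios of 0.66, 0.88, 0.60, 0.92 and 1.30 at days 5, 6, 7, 8 and 10. Its edgeR log2 difference was 0.88 ± 0.11 (adjusted p = 0.00327), higher in RepB cells on 5 of 5 days, and it ranked 11 by p-value among all genes. Lefty1 was 1.36-fold higher, with log2 ratios of 0.33, 0.72, 0.34, 0.38 and 0.46, an edgeR log2 difference of 0.48 ± 0.10 and an adjusted p of 0.0255, also higher on 5 of 5 days. The Lefty1 call was narrow. It was lost when day 5, 6, 7 or 10 was left out, with adjusted p-values of 0.0549, 0.183, 0.104 and 0.0747 by edgeR, while the Lefty2 and Sox3 calls passed whichever day was left out. Nodal, the ligand they antagonise, had a log2 difference of 0.33 ± 0.11 (adjusted p = 0.164, edgeR) and was higher in RepB cells on 4 of 5 days. Without day 8, the 1 later day on which Nodal was lower in RepB cells, Nodal passed (log2 0.39, adjusted p = 0.0366, edgeR). Of 12 alternatives, 11 left Nodal short of the threshold.

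Sox3 was at 0.479 times its WT level in RepB cells, with log2 ratios of -1.20, -1.27, -1.19, -1.42 and -0.23 at days 5, 6, 7, 8 and 10. The level was lower in RepB cells on 5 of 5 days, and at days 5 to 8 each log2 ratio was -1.19 or lower. The edgeR log2 difference was -1.11 ± 0.15 (adjusted p = 0.0056), rank 23 by p-value. Calls among X-linked genes were mostly in the other direction. Of 563 X-linked genes tested, 82 (14.6%) were higher in RepB cells and 4 (0.71%) were lower, with a median log2 difference of 0.22. Sox3 was 1 of the 4 lower ones and had the seventh lowest log2 difference of the 563.

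The log2 ratio of RepB to WT was lowest at day 8 for 7 of the 9 genes, all but Lefty1 and Lefty2. It was -0.08 for Nodal, -1.42 for Sox3 and -0.46 for Sox4 on that day, and -1.73 for Fgf5, -1.19 for Otx2, -1.46 for Pou3f1 and -1.11 for Zic2. At day 5 the ratios of Fgf5, Otx2, Pou3f1 and Zic2 lay between -0.07 and 0.46, and at day 10 between -0.23 and 0.30. The edgeR log2 differences over days 5 to 10 were -0.61 ± 0.20 for Fgf5 (adjusted p = 0.175), -0.32 ± 0.14 for Otx2 (0.292), -0.22 ± 0.19 for Pou3f1 (0.649) and -0.41 ± 0.14 for Zic2 (0.188). Each day is 1 library per line, so the day 8 values have no replicate check. Zic2 passed without day 5 (log2 -0.62, adjusted p = 0.0352), and Fgf5 passed with no filter on low counts (log2 -0.62, adjusted p = 0.0393), both by edgeR. For each of these genes 11 of 12 alternatives left it short of the threshold, and day 5 was the 1 later day with Zic2 higher in RepB cells. Sox4 had a log2 difference of -0.22 ± 0.08 (adjusted p = 0.246, edgeR) and was lower in RepB cells on 4 of 5 days.

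**Figure D2:**
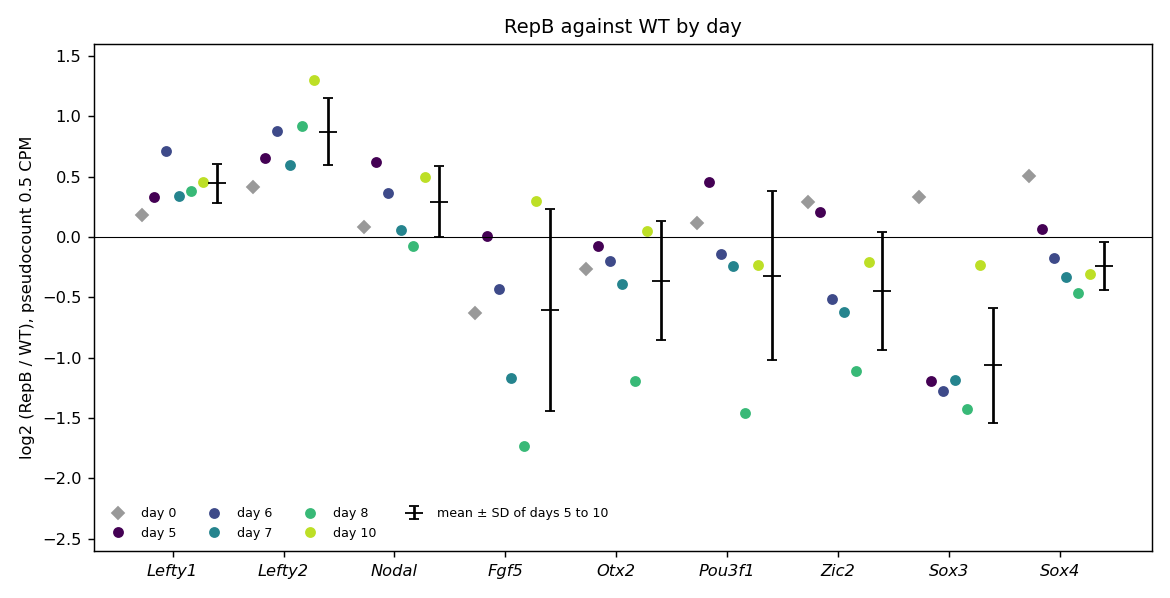
Log2 ratio of RepB to WT (vertical axis, CPM with a pseudocount of 0.5) for each gene on each day, 1 point per day, day 0 as grey diamonds, with black bars for the mean and SD of days 5 to 10. Lefty1 and Lefty2 lie above 0 and Sox3 lies below 0 on all 5 later days, and the day 8 points of all genes but Lefty1 and Lefty2 are their lowest.

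The difference between lines over days 5 to 10 was also set against that at day 0 in the same fit. Day 0 is 1 library per line with no spread of its own, so a difference that does not pass does not show that it was there at day 0. None of the 9 genes passed for the difference over days 5 to 10 less that at day 0, where 0.0329% of all genes passed, and 3 of the 9 had an unadjusted p under 0.05, as had 1345 of the 15179 genes. DESeq2 and limma-voom also called 0 of the 9. Sox3 had the smallest p-value of the 9, with a log2 difference of -1.52 ± 0.33 (adjusted p = 0.271, edgeR). It passed only when day 8 was left out (log2 -1.50, adjusted p = 0.0382), and its adjusted p over all alternatives ran from 0.0382 to 0.607. For Lefty2 the value was 0.40 ± 0.24 (adjusted p = 0.651) and for Lefty1 0.24 ± 0.21 (adjusted p = 0.777), beside log2 ratios at day 0 of 0.42 and 0.18. Sox4 was at 51.9 CPM in RepB cells and 36.4 CPM in WT cells at day 0 and had a difference less day 0 of -0.80 ± 0.21 (adjusted p = 0.327). A difference between lines in slope per day over days 5 to 10 passed for 0 of the 9 genes by edgeR and by limma-voom. By edgeR 0% of 12948 genes passed, and 200 genes had an unadjusted p under 0.05. That fit drew a straight line through each course, so bends shared by both lines counted as spread. It could hardly pass for any gene and does not show that the courses of the lines were alike.

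Of 21 other listed genes of the Nodal pathway, 20 were tested, 1 was higher and 0 were lower in RepB cells, beside 2.28% of all genes called, with a median log2 difference of -0.04. The higher one was Gdf3, a ligand related to Nodal (log2 0.61 ± 0.11, adjusted p = 0.0159 by edgeR, higher on 5 of 5 days). The 4 most abundant others were the co-receptor Tdgf1 (0.19, adjusted p = 0.479), the protease Furin that cleaves pro-Nodal (-0.03, 0.928), the Smad partner Foxh1 (-0.12, 0.626) and the corepressor Tgif1 (-0.11, 0.566). Over time, 5 of the 20 were higher (Cer1, Cfc1, Foxh1 and Skil among them) and 4 lower (Gdf1, Pcsk6, Smad7 and Tgif1) at day 5 than at day 0, a share equal to the 45% of all genes. At day 10, 9 were higher and 7 lower than at day 5, beside 56.9% of all genes. Gdf1 was at 0 CPM in RepB cells and 1.13 CPM in WT cells at day 0, so its call rests on 1 library. Foxh1 rose by a log2 difference of 1.27 at day 5 against day 0 and Cer1, a secreted Nodal antagonist, by 4.91 (adjusted p = 2.26e-05 and 0.000223, edgeR). Cer1 was at 0.0657 CPM in RepB cells and 0 CPM in WT cells at day 0, below the level of 3 counts, so the size of its rise is uncertain. Tdgf1 fell at day 10 against day 5 with a log2 difference of -4.14 (adjusted p = 1.71e-09) and Furin rose with 2.46 (adjusted p = 1.69e-08).

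Of 20 other formative and primed epiblast genes, 1 was higher and 1 lower in RepB cells, beside 2.28% of all genes called, with a median log2 difference of -0.13. Fgf4, a growth factor also made by naive cells, was the higher (log2 0.62 ± 0.12, adjusted p = 0.0244, edgeR), and Sall2, a zinc finger factor, the lower (-0.64 ± 0.12, adjusted p = 0.0201). The 4 most abundant were the de novo DNA methyltransferases Dnmt3b (-0.37, adjusted p = 0.156) and Dnmt3a (-0.04), the transcription factor Tead2 (-0.24, adjusted p = 0.152) and the kinase Pim2 (-0.19). At day 5, 14 of the 20 were higher and 5 lower (Etv4, Etv5, Fgf4 and Spry4 among them) than at day 0. Of all genes, 45% passed there (21.4% higher and 23.6% lower). At day 10, 16 of the 20 were lower and 3 higher (Cdh2, Sox11 and Tead2) than at day 5, beside 56.9% of all genes (27.8% lower and 29.2% higher). Dnmt3b rose at day 5 against day 0 with a log2 difference of 3.19 and fell at day 10 against day 5 with -3.98 (adjusted p = 9.19e-08 and 5.18e-09, edgeR).

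Among 12 naive pluripotency genes, 9 were higher and 0 lower in RepB cells, with a median log2 difference of 0.63. Of all genes, 1.51% were called higher and 0.771% lower. The 9 were Dppa3 (log2 0.91), Zfp42 (0.90), Esrrb (0.83), Prdm14 (0.80), Klf2 (0.73), Tfcp2l1 (0.65), Fgf4 (0.62), Nr0b1 (0.60) and Nanog (0.56), with adjusted p-values from 0.0016 to 0.0337 by edgeR. Klf4, Klf5 and Tbx3 did not pass. At day 5, 11 of the 12 were lower than at day 0 and Dppa3 was higher, the day on which Fgf5, Otx2 and Pou3f1 had risen; 45% of all genes passed there. Their summed level was higher in RepB cells on each of the 5 later days. It was 1581 CPM in RepB cells and 1125 CPM in WT cells at day 5, and 406 CPM and 306 CPM at day 10. The sum was already higher in RepB cells at day 0, at 6421 CPM against 5700 CPM in WT cells, with 1 library per line. For the difference over days 5 to 10 less that at day 0, the 12 genes had a median log2 of 0.45, beside -0.01 over all genes. Klf4 (-0.25), Klf5 (-0.47) and Tbx3 (-0.14) were below 0 there. Lefty1 and Lefty2 were likewise higher in RepB cells at day 0 and on the 5 later days, and the part of naive cells in that was not tested. Of 10 Sox and Zic relatives, 9 were tested and 1 was lower in RepB cells, where 0.771% of all genes were called lower. This was Sox1, a SoxB1 factor of neural progenitors (log2 -2.68 ± 0.38, adjusted p = 0.00562, edgeR), which averaged 1.37 ± 0.711 CPM in RepB cells and 10.7 ± 5.67 CPM in WT cells (SD over the 5 days). Sox2, the third SoxB1 gene, had a log2 difference of 0.32 (adjusted p = 0.0826), Sox11 one of -0.30 (0.129) and Sox12 one of -0.17 (0.467). Sox1 also stands among the neural markers below, and Fgf4 in both the naive and the formative list.

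**Figure D3:**
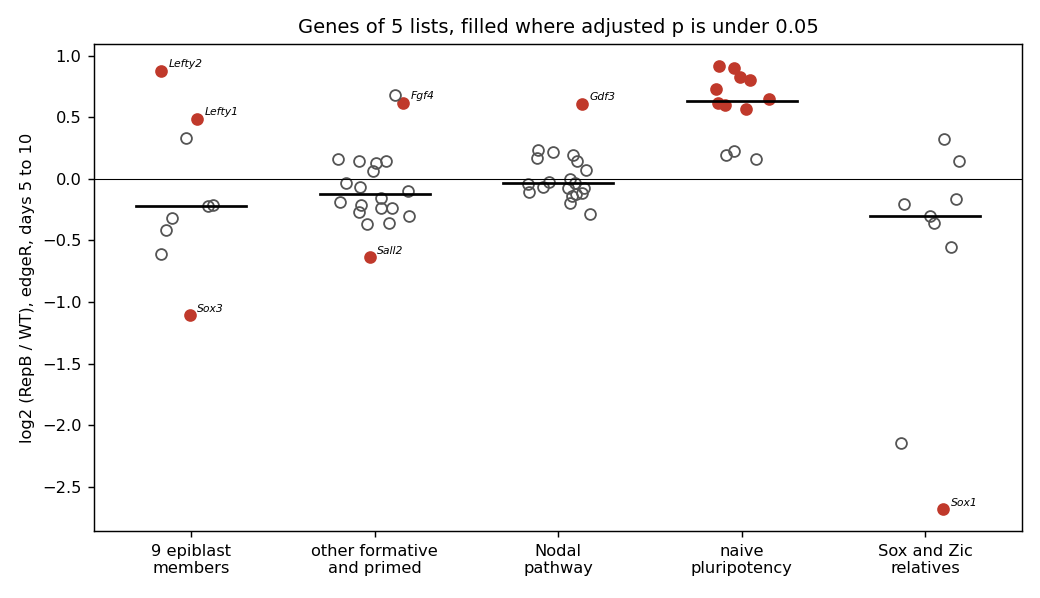
Log2 difference of RepB against WT over days 5 to 10 from the edgeR fit (vertical axis) for the tested genes of 5 lists (horizontal axis), 1 point per gene, filled where the adjusted p is under 0.05, with a black line at each list's median. The medians are -0.22 for the 9 epiblast genes, -0.13 for other formative and primed genes, -0.04 for the Nodal pathway, 0.63 for naive genes and -0.30 for Sox and Zic relatives.

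Markers of other cell types moved over the same libraries. Beside their calls between lines below, 1.51% of all genes were called higher and 0.771% lower in RepB cells. The 6 neural markers (Sox1, Pax6, Lhx2, Nes, Tubb3 and Map2) summed to 96.4 to 361 CPM in RepB cells and 104 to 397 CPM in WT cells over days 5 to 10, lower in RepB cells on 5 of 5 days. Of these, Sox1, Lhx2 (log2 -1.91), Pax6 (-1.83) and Map2 (-0.64) passed as lower (adjusted p = 0.00562, 0.0177, 0.0284 and 0.0406, edgeR), over the same days on which Sox3 was lower. The other neural markers did not go with them, with a log2 difference of 0.16 for Tubb3 and of -0.0009 for Nes. The 8 feeder or fibroblast markers summed to 55.1 CPM in RepB cells and 69.3 CPM in WT cells at day 5, below their day 0 sums of 819.5 CPM in RepB cells and 723 CPM in WT cells. Of the 8, Col3a1 (log2 1.04) and Postn (1.35) passed as higher in RepB cells over days 5 to 10 (adjusted p = 0.046 and 0.0483, edgeR). At day 10 the 8 summed to 13480 CPM in RepB cells and 8980 CPM in WT cells. By edgeR 7 of the 8 were higher at day 10 than at day 0 and Thy1 was lower (log2 -4.35), where 64.8% of all genes passed. Feeders had been removed before day 5, and the source of the late rise was not tested. On day 8 the 8 markers summed to 2916 CPM in RepB cells and 1368 CPM in WT cells, and on that day Fgf5, Otx2, Pou3f1 and Zic2 differed most between lines. The 5 mesoderm markers summed to 379 CPM in RepB cells and 161 CPM in WT cells at day 5, and to 66.8 CPM in RepB cells and 235 CPM in WT cells at day 8. At days 6, 7 and 10 the sums were 1507, 661 and 13.35 CPM in RepB cells and 1416, 854 and 14.5 CPM in WT cells. None of the 5 mesoderm markers passed between lines over days 5 to 10, and none had an unadjusted edgeR p under 0.05. The 5 endoderm markers summed to 14.2 to 429.8 CPM in RepB cells and 13.1 to 409 CPM in WT cells, and the 4 cardiac markers to 6.98 to 123 CPM in RepB cells and 5.83 to 249.6 CPM in WT cells. None of the 4 cardiac markers passed between lines, and 2 had an unadjusted edgeR p under 0.05. Of the 5 endoderm markers, 1 passed as higher in RepB cells (log2 0.97, adjusted p = 0.0183, edgeR, higher on 5 of 5 days). No marker was at 0 in all libraries. The part of these cell types and of the lower depth of RepB libraries in the differences between lines was not tested, except that with all libraries thinned to 3594551 counts Lefty1, Lefty2 and Sox3 passed.

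The genes with the most similar course to each of the 9 were ranked by the Pearson r of log2(CPM + 0.5) over the 12 libraries, and only genes averaging 2 or more on the log2 CPM scale were ranked. For Lefty2 the first was the naive pluripotency factor Nanog (r = 0.993), and for Lefty1 they were Zfp819 (0.993) and Sox2 (0.993). Otx2 and Pou3f1 were each other's first (0.992), followed in both by Pim2 (0.988 and 0.983). Fgf5 was followed most closely by Pphln1 (0.992) and Magel2 (0.984), Nodal by Srpk1 (0.987), Zic2 by Dtx3l (0.989), Sox3 by Gprin1 (0.963) and Sox4 by Grip1 (0.986). The highest coefficient of Sox3 was the lowest of the 9. Of the 27 genes chosen this way, 26 were chosen again with a pseudocount of 1 CPM and 24 with TMM-scaled CPM. Within the 9, Lefty1 and Lefty2 had r = 0.97, while Fgf5 had r = -0.01 with Lefty1.

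Reads assigned to the columns named cas and mus gave an allelic share for each gene in these CAST/Ei x 129/Sv/Jae hybrids. The cas share over days 5 to 10 was tested between lines in 1 edgeR fit over 10332 genes, of which 2.24% passed. None of the 9 genes passed, none had an unadjusted p under 0.05, and no alternative coverage minimum or left-out day gave a call. Of these 7 alternatives, Sox3 had enough allelic counts to be tested in only 5 and Pou3f1 in only 6. Over all genes, 602 had an unadjusted p under 0.05. For genes with a cas share near 0, and for Sox3 with 31 allelic counts in RepB cells, the test could hardly pass, so it says little of their alleles. Fgf5 and Sox4 had reads of both alleles, with a cas share for Fgf5 of 61.95% (exact 95% interval 58.2 to 65.6%) in RepB cells and 61.7% (59.7 to 63.7%) in WT cells. The cas share of Sox4 was 48.6% (45.4 to 51.8%) in RepB cells and 46.8% (44.9 to 48.7%) in WT cells. Both genes thus had overlapping intervals between the lines.

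Sox3, the X-linked gene, had cas shares at day 0 of 42.0% (28.2 to 56.8%) in RepB cells and 50% (32.4 to 67.6%) in WT cells. Over days 5 to 10 summed, 21 of 31 allelic counts were cas in RepB cells (67.7%, 48.6 to 83.3%) and 156 of 216 in WT cells (72.2%, 65.7 to 78.1%). The allelic fit gave a log2 difference of the cas to mus ratio of -0.31 ± 0.84 (adjusted p = 1), an error too wide for this depth to show a difference of that size. The 31 counts in RepB cells over 5 libraries limit what can be seen of the Sox3 alleles.

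The other 6 genes had few cas reads in either line. Over days 5 to 10 the cas share was 0.311% in RepB cells and 0.316% in WT cells for Lefty1, and 0.160% in RepB cells and 0.125% in WT cells for Nodal. It was 2.80% in RepB cells and 2.71% in WT cells for Otx2, and 2.41% in RepB cells and 1.10% in WT cells for Zic2. For Pou3f1, 0 of 121 allelic counts were cas in RepB cells, which at a limit of 3 counts allows a share of up to 2.48% (the exact 95% interval reaches 3.00%), and the share in WT cells was 1.35%. Lefty2 stood apart from its neighbour Lefty1, with 7.64% (6.43 to 9.00%) in RepB cells and 6.68% (5.79 to 7.67%) in WT cells. At day 0 Lefty2 had 5.26% (4.52 to 6.07%) in RepB cells and 2.98% (2.37 to 3.69%) in WT cells. These day 0 intervals do not overlap, but they cover counting error only and rest on 1 library per line. Genes with a share near 0 carry no comparison between alleles here.

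**Figure D4:**
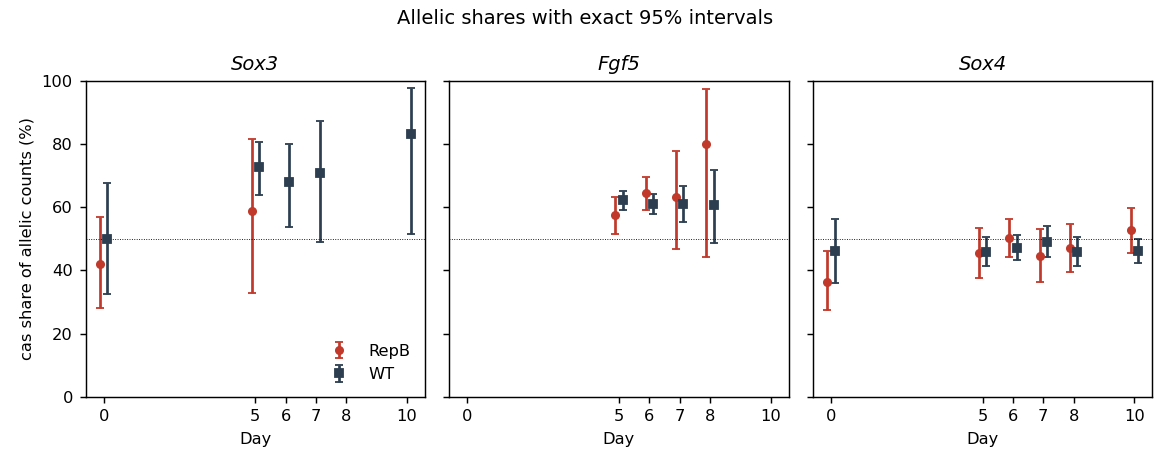
Share of allelic counts in the cas column (vertical axis, percent) by day for Sox3, Fgf5 and Sox4, RepB as circles and WT as squares, with exact 95% intervals, for libraries with at least 10 allelic counts of the gene. RepB and WT intervals overlap on every day on which both lines have a share, and Sox3 has RepB shares at days 0 and 5 only.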

How the data were processed

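The 12 RNA libraries were taken from the deposited table of gene counts: whole-number counts per gene as the authors made them, with total, cas and mus columns and exon lengths. Novoalign, TopHat, SAMtools, bedtools, featureCounts and the build mm9 are named, per the submitters' processing notes, without versions or roles. A further 6 count columns matched no listed RNA sample and were not used. CPM and TPM were computed from the deposited counts. Counts were tested with edgeR 4.0.16 in R 4.3.3 (quasi-likelihood, TMM scaling, filterByExpr, Benjamini-Hochberg adjustment over all genes tested, adjusted p under 0.05). All 9 genes passed the filter. Genes averaging 20 or more cas plus mus counts entered the allelic fit. Depth ran from 3594551 to 17773138 counts per library. With 1 library for each line and day, residual degrees of freedom were 4 for lines, 5 for days, 6 for slopes and 4 for alleles. Alternatives were limma-voom (limma 3.58.1), DESeq2 1.42.0, RLE scaling, no filter, thinned counts, other day and genotype terms and each day left out. The genes, lists and tests were chosen with earlier results of these data known. All 9 genes were named, with up to 4 genes of each other list by mean CPM and those that passed between lines; genes named only for a change between days, the marker genes named, the X-linked counts and the naive sums were chosen after their values were seen. Some genes that these rules would name are not reported here.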

Additional observations from a re-analysis of the deposited data

How the results depend on the processing

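Of 762 log2 values recomputed under alternatives, 711 kept their direction and side of the threshold, 14 no longer passed, 9 passed anew and 28 changed sign, all of them values that had not passed. For RepB against WT over days 5 to 10, the count of genes called was 3; it was 0 with no day term and 1 with 1 genotype effect over all 6 days, and 2 to 4 when a day was left out. Adjusted p-values over the alternatives ran from 2.56e-10 to 1 for Lefty2, 0.00716 to 1 for Lefty1, 1.23e-05 to 1 for Sox3, 0.0366 to 1 for Nodal, 0.0352 to 1 for Zic2 and 0.0393 to 1 for Fgf5. The difference less day 0 gave 0 to 1 calls when a day was left out, 1 without day 8. Other counts when a day was left out were 9 to 9 at day 5, 8 to 8 at day 6, 7 to 8 at day 7, 6 to 6 at day 8 and 8 to 9 at day 10 against day 0, 9 to 9 at day 10 against day 5, and 0 to 0 for slopes and cas shares. Values with a changed sign were, for RepB against WT, Pou3f1 with no day term (log2 0.035), and when a day was left out Pou3f1 (-0.45 to 0.021) and, less day 0, Otx2 (-0.19 to 0.037). At day 8 against day 0 Otx2 was -0.036 with RLE scaling and -0.040 to 0.020 when a day was left out. The slope difference per day was 0.068 for Otx2 and 0.018 for Zic2 in thinned counts; when a day was left out it ran from -0.54 to 0.099 for Fgf5, -0.33 to 0.041 for Otx2, -0.065 to 0.019 for Lefty1, -0.21 to 0.033 for Nodal, -0.064 to 0.25 for Sox3 and -0.35 to 0.052 for Zic2. The log2 difference of the cas to mus ratio then ran from -0.080 to 0.23 for Fgf5, -1.18 to 0.68 for Otx2, -0.62 to 0.10 for Lefty1 and -0.75 to 3.04 for Nodal. The causes were not tested. The lines were paired by day in the RepB against WT fit, and the fit with no day term is the unpaired one. Few counts limit the day 0 levels of Fgf5 and Cer1, the alleles of Sox3, and the levels of Sox1, Pax6 and Lhx2 in RepB cells.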

Other observations

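In the count table Sde2 and Tmem63a lie on either side of Lefty2 and Lefty1 on chromosome 1. Summed over all days, the cas share of Lefty2 was 6.08% (exact 95% interval 5.43 to 6.77%) in RepB cells and 4.88% (4.33 to 5.48%) in WT cells. That of Sde2 was 0.826% (0.441 to 1.41%) in RepB cells and 0.418% (0.216 to 0.730%) in WT cells. Lefty1 had 0.232% (0.100 to 0.456%) in RepB cells and 0.181% (0.0783 to 0.357%) in WT cells, and Tmem63a had 0.333% (0.0404 to 1.20%) in RepB cells and 1.01% (0.541 to 1.73%) in WT cells. Lefty2 was thus the only one of these 4 genes with a cas share above 2% in both lines. The cause was not tested. These genes were chosen after their values were seen.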
